A study of Mus musculus with 240 samples.

Results

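Activity-induced immediate early genes were examined across every library of a mouse glioma premalignancy series. The genes were Fos, Fosb, Junb, Egr1, Egr2, Arc, Npas4, Nr4a1, Ier2 and Dusp1. They were chosen by name, with earlier results of these data known. All 10 were found among the 34623 genes of the deposited count table. By the annotation in the deposited table (GRCm38), all are protein-coding: Fos at chr12:85473890-85477273 (plus strand), Fosb at chr7:19302696-19310051 (minus strand), Junb at chr8:84974484-84978718 (minus strand), Egr1 at chr18:34859823-34864984 (plus strand), Egr2 at chr10:67535475-67542188 (plus strand). The others are Arc at chr15:74669083-74672570 (minus strand), Npas4 at chr19:4984355-4989971 (minus strand), Nr4a1 at chr15:101266846-101274792 (plus strand), Ier2 at chr8:84661331-84662852 (minus strand) and Dusp1 at chr17:26505590-26508519 (minus strand). All 10 passed the filter on low counts in the bulk libraries. In the small libraries fewer passed, as given beside those results.

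The study collected oligodendrocyte precursor cells and tumour cells from mouse brain cryosections by laser capture microdissection, in which a laser cuts chosen cells out of a tissue section. Bulk captures came from 37 animals. Another 56 libraries at 12 dpi and 56 at 90 dpi held 10 cells each, and 80 were pool-and-split controls, in which pooled material is divided among libraries. Counts were expressed as counts per 1000000 of the total (CPM). For bulk animals and summed sets this was after TMM scaling, and for single small libraries without it.

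All bulk captures, of either genotype and of tumours, carry the label tdTpositive. The mutant genotype was Trp53-/- Nf1-/- (CKO), which lacks the tumour suppressor p53 and the Ras inhibitor neurofibromin. Every animal, wild-type animals included, was timed in days (dpi) from the start of tamoxifen treatment. The bulk groups were wild-type at 12 dpi (5 animals), CKO at 12 dpi (7), wild-type at 90 dpi (5), CKO at 90 dpi (7), wild-type at 150 dpi (6) and tumours of the mutant genotype at 150 dpi (7). No CKO group without tumour at 150 dpi was analysed here, so time and tumour cannot be told apart in a comparison of tumours with CKO cells of 90 dpi. All small libraries were CKO, at 12 or 90 dpi. The driver of the recombinase, the ages of the animals and whether a numbered set of small libraries is 1 animal were not given in the sources used here.

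Immediate early genes are transcribed within minutes of a stimulus, from factors already present in the cell and without new protein synthesis. Calcium entry and growth factors reach them through kinases that act on CREB and on serum response factor with its ELK partners. CREB binds the cyclic AMP response element, and serum response factor binds the CArG box. In brain tissue immediate early genes are widely used as marks of recent neuronal firing. Many are also induced in glia by growth factors, injury or tissue handling.

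Promoters that hold these elements are shown for 5 of the genes: Npas4, the gene with the largest fall in tumours, Dusp1, which did not pass the test there, and Fos, Nr4a1 and Egr2, which hold the TATAAA motif, the most copies of TGACG and the CArG box. RefSeq promoter sequences (build GRCm38.p6, 250 bases before each annotated start) matched 7 of the 10 genes, with 11 starts. Egr1, Arc and Ier2 had no entry. In the lines that follow, read 5′ to 3′ on the gene's strand, capitals mark TGACG, the core of the cyclic AMP response element, on either strand (CGTCA on the other), TATAAA, the CArG box and the EGR motif GCGNGGGCG on either strand. The Fos stretch is chr12:85473640-85473889 on the plus strand, just upstream of the gene. The Nr4a1 stretch is chr15:101266596-101266845 on the plus strand, upstream of its start and inside an intron of a longer annotated transcript. The Dusp1 stretch is chr17:26508520-26508722 on the minus strand, 250 to 48 bases before its start. The Npas4 stretch is chr19:4990128-4990157 on the minus strand, 186 to 157 bases before the RefSeq start, in what the GENCODE annotation counts as 5′ UTR of a longer first exon. The Egr2 stretch is chr10:67537793-67537822 on the plus strand, 76 to 47 bases before 1 of its 5 starts.
Fos: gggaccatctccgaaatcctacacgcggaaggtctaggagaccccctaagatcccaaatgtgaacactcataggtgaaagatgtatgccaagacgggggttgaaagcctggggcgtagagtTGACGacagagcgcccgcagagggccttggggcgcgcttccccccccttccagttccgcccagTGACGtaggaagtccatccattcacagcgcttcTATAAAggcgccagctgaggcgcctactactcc
Nr4a1: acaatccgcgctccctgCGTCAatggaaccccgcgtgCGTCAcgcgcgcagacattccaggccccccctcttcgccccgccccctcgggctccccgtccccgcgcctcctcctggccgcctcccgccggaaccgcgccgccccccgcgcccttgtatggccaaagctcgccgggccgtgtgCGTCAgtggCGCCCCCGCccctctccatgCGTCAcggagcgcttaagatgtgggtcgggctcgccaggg
Dusp1: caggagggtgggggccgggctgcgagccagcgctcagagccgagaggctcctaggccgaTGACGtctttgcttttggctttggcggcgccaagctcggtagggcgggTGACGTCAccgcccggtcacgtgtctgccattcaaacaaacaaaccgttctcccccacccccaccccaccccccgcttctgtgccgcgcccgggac
Npas4: cgttcgaCGTCAcgggaTGACGtcggaagt
Egr2: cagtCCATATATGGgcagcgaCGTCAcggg

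TGACG was found on either strand in all 7 genes and at 9 of their 11 starts, of which 3 are overlapping Egr2 windows that hold the same 2 sites. Of the 32851 RefSeq mouse promoters of this length 17.8% held it. Nr4a1 held 4 copies, of which the closest lay 40 to 36 bases before the start. Fos held 2 copies and was the one gene with TATAAA, which is found in 12.4% of all promoters. Npas4 held 2 copies on opposite strands, 179 to 175 and 169 to 165 bases before its start. Dusp1 alone held the full palindrome TGACGTCA (1.55% of all promoters), which contains the core on both strands. The CArG box, found in 1.47% of promoters, was found in Egr2, at 4 of its 5 starts. Of these windows, the 3 that overlap hold the same element, and the remaining window holds another. GCGNGGGCG, the motif of EGR proteins, was found in Fosb and Nr4a1 (4.70% of promoters), and the AP-1 motif TGANTCA, searched on both strands, in none of the 7 (6.75%). These are letter matches in a window and not measured sites.

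In units of 1000000 counts (M), the bulk libraries held 0.0937 to 23.2 M (median 10.0 M), the 10-cell libraries 1.64 to 6.49 M and the pool-and-split libraries 1.91 to 5.16 M. The library of wild-type animal WT_21167 (90 dpi) was the shallowest, at 0.0937 M, and held 0 counts of Junb and of Ier2. Without it the number of the 10 genes called was the same in each bulk comparison except the interaction of 90 and 150 dpi, where it was 5 in place of 6. Markers of neurons were present beside those of oligodendrocyte precursors in the bulk captures. The summed level of 17 neuron markers was 7313 to 17230 CPM in the 30 animals without tumour and 327.9 to 1592 CPM in the tumours, and none of the 17 was at 0 in every library of a group. The summed level of 12 oligodendrocyte precursor markers was 2102 to 4157 CPM without tumour and 4768 to 12730 CPM in tumours, with none at 0 throughout a group.

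In cells without tumour every gene was present, and the genes differed widely in level. Per kilobase of the longest annotated transcript, the median over the 30 animals without tumour was highest for Egr1, a zinc finger transcription factor, at 205.8 CPM per kb. Arc, a synaptic protein that promotes removal of AMPA receptors, followed at 63.3 CPM per kb. Nr4a1, an orphan nuclear receptor, stood at 46.0 CPM per kb, and Fos, an AP-1 subunit, at 37.7. Dusp1, the phosphatase that switches off MAP kinases, stood at 24.2 CPM per kb. Fosb and Junb, further AP-1 subunits, stood at 16.2 and 14.5 CPM per kb, Npas4, a transcription factor induced by calcium entry in neurons, at 12.8, and Egr2, a relative of Egr1, at 11.3. Ier2, a nuclear protein of the primary response, was lowest at 4.92 CPM per kb. Whether counts scale with transcript length in these libraries was not tested, and the order without the division can differ. Neighbours in this order overlapped across animals: Fosb ranged from 3.33 to 46.5 CPM per kb, Junb from 0 to 29.8 and Npas4 from 3.18 to 37.6. In the 7 tumours the order was different. Egr1 was again first, at a median of 30.9 CPM per kb, but Dusp1 was second at 20.8, Ier2 was the fifth at 3.59, Arc the eighth at 1.69 and Npas4 the last at 0.246.

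**Figure D1:**
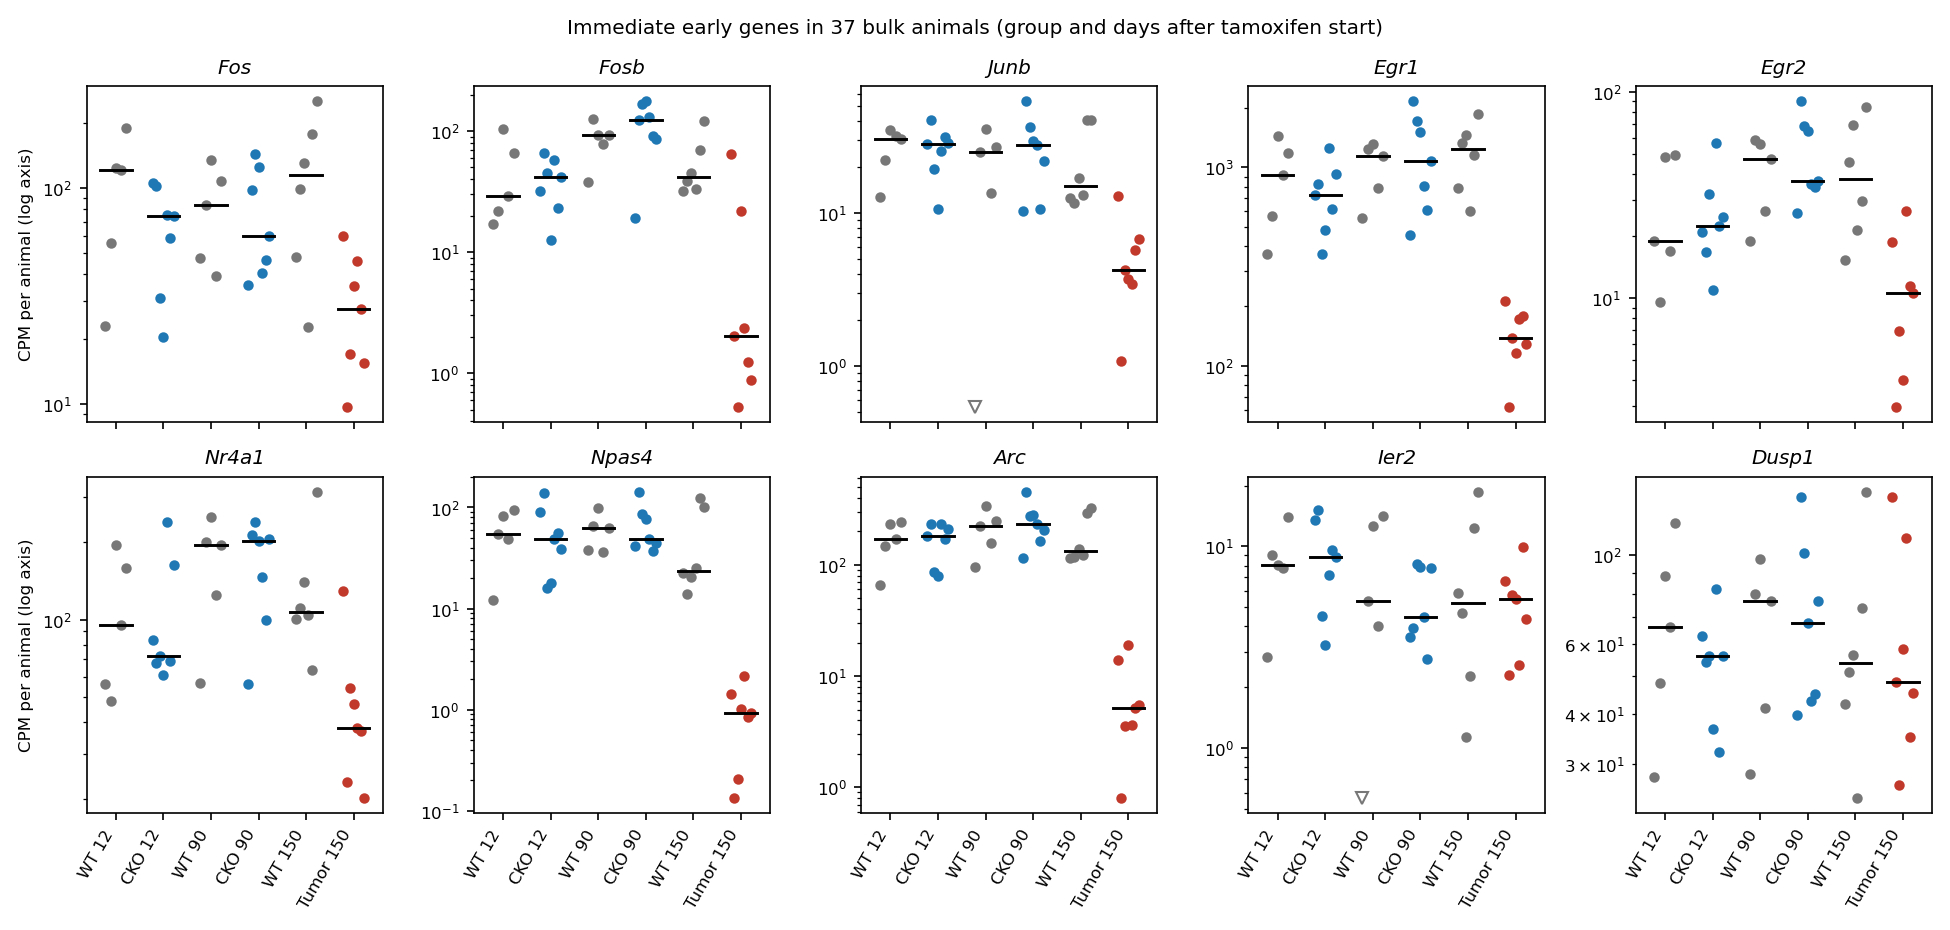
Level of each gene in every bulk animal, in CPM on a log scale, by group, with the group median as a bar and an open triangle for a value of 0. Egr1, Arc and Npas4 in tumours lie below every other 150 dpi animal, while Dusp1 and Ier2 overlap in all groups.

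The first question was whether the genes differed between mutant and wild-type cells before tumours formed. At 12 dpi the groups overlapped for all 10, where 0.606% of all genes were lower in every CKO animal than in every wild-type animal and 0.722% higher. Fos in wild-type animals was 23.0, 55.6, 124.2, 122.2 and 189.8 CPM, and in CKO animals it ranged from 20.5 to 105.5 CPM (median 74.4). Egr1 was 366.1, 570.5, 1434, 917.2 and 1180 CPM in wild-type animals and 366.9 to 1254 CPM (median 727.3) in CKO animals. Arc was 65.9, 147.5, 232.0, 169.4 and 241.5 CPM in wild-type animals and 78.8 to 232.5 CPM (median 180.1) in CKO animals. Each gene's range in one genotype lay almost wholly within the other's. Wild-type animal WT_22056 was the lowest of its group for these 3 genes. By edgeR's quasi-likelihood test with Benjamini-Hochberg adjustment over all 16349 genes tested, 0 of the 10 were called at 12 dpi, where 0.0183% of all genes were, and 0 had an unadjusted p under 0.05 (4.85% of all genes). DESeq2 called 0 as well. The fitted log2 difference ran from -0.61 for Fos to -0.01 for Ier2.

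At 90 dpi the genotypes again overlapped for each of the 10, where 0.312% of all genes were lower in every CKO animal and 0.447% higher. Egr1 in wild-type animals was 559.3, 1244, 1308, 791.3 and 1148 CPM, and in CKO animals 456.5 to 2154 CPM (median 1072). Npas4 was 37.9, 64.9, 99.0, 36.5 and 62.1 CPM in wild-type animals and 37.0 to 142.6 CPM (median 48.5) in CKO animals. The CKO group held both the highest and, for Egr1, the lowest animal. None of the 10 was called (0.0489% of all genes were), none had an unadjusted p under 0.05 (5.2% of all genes did), and DESeq2 called none. Ier2 came closest, with a log2 difference of -0.84 and an unadjusted p of 0.0612 in the edgeR fit. Tested as an interaction, the genotype effects at 12 and 90 dpi did not differ by an edgeR call for any of the 10, as for 0% of all genes. No gene of the 10 was under an unadjusted p of 0.05 in that test (3.6% of all genes), and DESeq2 called 0.

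Over time within a genotype no gene was called either. In CKO animals from 12 to 90 dpi, 0 of the 10 were called (0% of all genes), although Fosb (log2 change 1.42, unadjusted p 0.0396), Egr2 (0.93, 0.0353) and Egr1 (0.65, 0.0494) were under 0.05 before adjustment in the edgeR fit, as were 4.26% of all genes. Fosb was 12.6 to 65.6 CPM (median 41.6) at 12 dpi and 19.1 to 175.9 CPM (median 124.2) at 90 dpi. CKO_20642, at 19.1 CPM, lay within the range of 12 dpi, so the groups overlapped. They overlapped for each of the 10, where 0.043% of all genes were lower in every CKO animal of 90 dpi and 0.055% higher. In wild-type animals 0 of the 10 were called from 12 to 90 dpi (0.00612%) or from 90 to 150 dpi (0.0183%), and 0 were under an unadjusted p of 0.05 in either edgeR fit (4.86% and 8.26% of all genes). These comparisons share groups, and no overlap between them was taken as a result. DESeq2 called none of the 10 in any of these comparisons. Between sexes 0 were called (0.0489%) and 3, Fos, Junb and Ier2, were under an unadjusted p of 0.05 (7.28% of all genes). All 10 fitted differences were below 0 for males against females, as were 7539 of the 16349 genes tested. The 10 genes vary together across animals, so their signs are not separate observations. Ier2 was the closest to the threshold (log2 difference -0.84, unadjusted p 0.0017, adjusted p 0.529 by edgeR).

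In tumours of 150 dpi 8 of the 10 genes fell against wild-type cells of the same time, by 2.97 to 54.9-fold. The call covered 46.2% of all genes in either direction and 21.9% as lower. The median log2 difference over the 10 was -2.01, against 0.06 over all genes tested. Npas4 and Arc fell most, Egr1 next, and Ier2 and Dusp1 did not pass the test. In bulk captures, fewer cells of a type and less RNA per cell cannot be told apart.

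Npas4 was 13.9, 20.4, 22.4, 25.1, 100.1 and 124.6 CPM in the 6 wild-type animals, and 0.135, 0.205, 0.848, 0.931, 1.01, 1.43 and 2.15 CPM in the 7 tumours. Every tumour was below every wild-type animal, and the wild-type animals themselves split into 4 low and 2 high, the high ones being the 2 females, WT_22062 and WT_22064. The difference was -5.78 on the log2 scale (SE 0.63, adjusted p = 1.675e-09). The Npas4 promoter shown above carries 2 core elements in opposite orientation. That of Dusp1, which did not pass the test, holds 3, and a part of these elements in the fall was not tested.

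Arc was 114.7, 116.6, 123.6, 140.0, 291.3 and 320.5 CPM in wild-type animals and 0.808 to 19.1 CPM (median 5.16) in tumours. The groups did not overlap, and Tumor_16844 (19.1 CPM) and Tumor_16713 (13.8 CPM) were the highest of their group. Arc differed by -4.58 (SE 0.47, adjusted p = 3.221e-10 by edgeR).

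Among the EGR genes, Egr1 was 606.2 to 1858 CPM (median 1239) in wild-type animals and 62.1 to 212.8 CPM (median 138.7) in tumours. The lowest wild-type animal was above the highest tumour. Egr1 differed by -3.08 (SE 0.35, adjusted p = 4.454e-09). Egr2 was 15.3 to 84.4 CPM (median 37.6) in wild-type animals and 2.96 to 26.5 CPM (median 10.6) in tumours, and 5 of the 7 tumours lay below every wild-type animal. Egr2 differed by -1.97 (SE 0.46, adjusted p = 0.0005468). The count of genes with every tumour below every wild-type animal was 3 of 10 (Egr1, Arc and Npas4), where 8.96% of all genes tested did so.

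The AP-1 subunits fell as well, with overlap between tumours and wild-type cells. Fos was 22.9 to 253 CPM (median 114.9) in wild-type animals and 9.70 to 60.0 CPM (median 27.6) in tumours, with 3 of 7 tumours below every wild-type animal. It differed by -1.96 (SE 0.46, adjusted p = 0.0005805). Junb was 11.6 to 40.6 CPM (median 15.1) in wild-type animals and 1.08 to 12.9 CPM (median 4.27) in tumours, with 6 of 7 tumours below every wild-type animal. It differed by -2.05 (SE 0.40, adjusted p = 5.612e-05). Both groups touched only at their edges for Junb and over a wider range for Fos.

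Fosb was the most uneven gene among tumours. It was 31.9, 33.4, 38.9, 45.3, 69.8 and 119.9 CPM in wild-type animals. In 5 tumours it was 0.527 to 2.37 CPM, while Tumor_16844 was at 21.8 and Tumor_16713 at 64.1 CPM. The last of these lay within the wild-type range. Fosb differed by -2.19 (SE 0.70, adjusted p = 0.01002). A fit of the 2 compared groups alone gave -2.23 with an adjusted p of 0.0700, which is not a call. Without Tumor_16713 and Tumor_16844, chosen after their values were seen, the difference was -5.51.

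Nr4a1 was 63.5 to 313.8 CPM (median 107.4) in wild-type animals and 20.3 to 128.9 CPM (median 37.9) in tumours. All but 1 tumour, Tumor_16713, lay below every wild-type animal. Nr4a1 differed by -1.57 (SE 0.41, adjusted p = 0.001752).

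Dusp1 and Ier2 overlapped fully. Dusp1 was 24.8 to 143.8 CPM (median 53.6) in wild-type animals and 26.6 to 139.6 CPM (median 48.1) in tumours, a log2 difference of 0.04 with a 95% interval of -0.71 to 0.80 (adjusted p = 0.940). Without the same 2 tumours it was -0.23. Ier2 was 1.13 to 18.6 CPM (median 5.25) in wild-type animals and 2.29 to 9.86 CPM (median 5.46) in tumours, a difference of -0.46 with an interval of -1.29 to 0.38 (adjusted p = 0.383). Neither interval reaches the fall of Egr1, whose own interval was -3.79 to -2.36. That of Ier2 overlaps the intervals of Fos (-2.89 to -1.03), Fosb (-3.60 to -0.77) and Junb (-2.86 to -1.24). It also overlaps those of Egr2 (-2.895 to -1.04) and Nr4a1 (-2.39 to -0.74). Counts of Ier2 were low, down to 2 in a wild-type animal of 150 dpi.

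**Figure D2:**
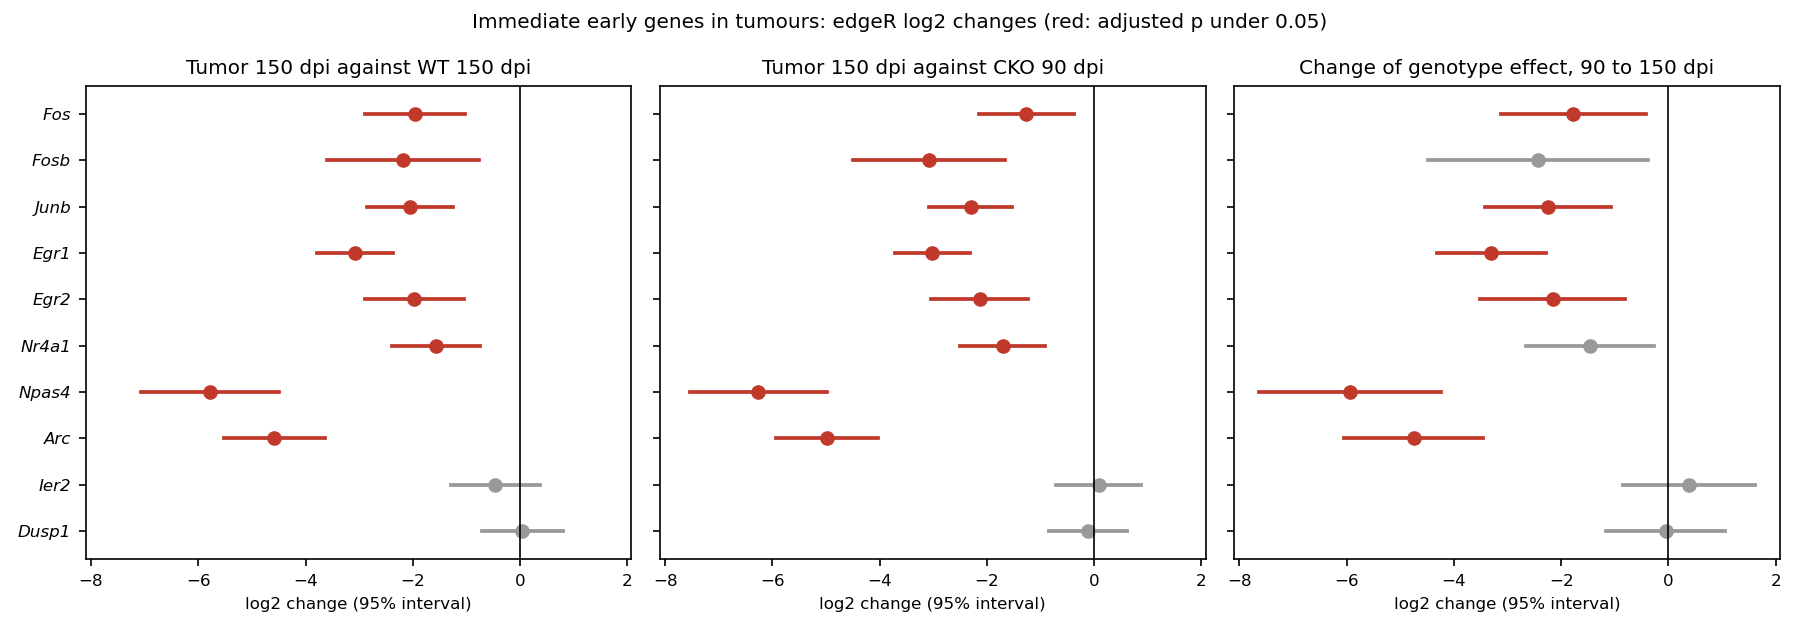
Fitted log2 change of each gene with its 95% interval in 3 comparisons: tumours against wild-type cells of 150 dpi, tumours against CKO cells of 90 dpi, and the shift in genotype effect between those times. Npas4 and Arc lie farthest below 0 in each panel, and Ier2 and Dusp1 cross 0 in all 3.

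Tumours were next set against CKO cells of 90 dpi, the same genotype before tumour. The 2 comparisons share the tumours, so their values are given side by side and not as repeats. Of the 10 genes 8 fell, where 49.1% of all genes were called and 22.6% as lower. The median log2 difference of the 10 was -2.22, against 0.12 over all genes. Npas4 differed by -6.26 (SE 0.63), Arc by -4.99 (0.47), Fosb by -3.09 (0.70) and Egr1 by -3.02 (0.35). Junb differed by -2.31 (SE 0.39), Egr2 by -2.14 (0.45), Nr4a1 by -1.71 (0.39) and Fos by -1.27 (0.44), the last with an adjusted p of 0.01622 by edgeR. Without CKO_20647 the difference of Fos was -1.06 with an adjusted p of 0.0538. Ier2 (0.09, interval -0.71 to 0.88) and Dusp1 (-0.11, interval -0.83 to 0.61) did not pass. Arc was 114.2 to 451.7 CPM (median 230.6) in the 7 CKO animals, Npas4 37.0 to 142.6 CPM and Egr1 456.5 to 2154 CPM. For these 3 every tumour lay below every CKO animal, as for 10.5% of all genes. For Fosb, CKO_20642, at 19.1 CPM, lay among the tumours, and the other 6 were at 86.4 CPM or more. Without the 2 tumours of high Fosb the difference of Fosb was -6.47.

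The difference between tumour and wild-type at 150 dpi was then tested against that between CKO and wild-type at 90 dpi, as an interaction. Of the 10 genes 6 were called, all lower, where 30% of all genes were called and 15.8% as lower. The interaction was -5.94 for Npas4 (SE 0.84, adjusted p = 7.744e-07), -4.75 for Arc (0.64, 3.528e-07) and -3.30 for Egr1 (0.50, 3.008e-06). It was -2.24 for Junb, -2.16 for Egr2 and -1.78 for Fos, whose adjusted p of 0.0403 was over 0.05 in 18 of the 37 fits that left out 1 animal. Without WT_21167 it was -1.68 (adjusted p 0.0654). Fosb (-2.43, adjusted p 0.0664) and Nr4a1 (-1.46, 0.0589) did not pass in the edgeR fit. Without Tumor_16713 the Fosb value was -3.76 and passed (adjusted p 0.002095), as did -1.81 for Nr4a1 (0.01391), and without both Tumor_16713 and Tumor_16844 the Fosb value was -5.76. Ier2 was at 0.39 and Dusp1 at -0.05.

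Levels of cell type markers moved with these falls. Of the 17 neuron markers 13 fell in tumours against wild-type, 1 rose and 3 did not pass, with a median log2 difference of -3.18. Rbfox3, the nuclear antigen NeuN, fell by 5.46 on the log2 scale and Camk2a, a postsynaptic kinase, fell by 5.29. The summed neuron level had a median of 554.2 CPM in tumours, and its range of 327.9 to 1592 CPM did not overlap that of any other group. Of the 12 oligodendrocyte precursor markers 10 rose (median 1.45), among them Vcan (2.14) and Sox10 (1.91), and of the 10 microglia markers 9 rose (median 2.05), with C1qa at 2.95. Oligodendrocyte markers rose in 1 and fell in 6 of 10, astrocyte markers rose in 5 and fell in 4 of 10, and endothelial markers rose in none and fell in 2 of 10. The part of any of these in the falls of the immediate early genes was not tested.

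Within the same pathway, other genes did not all move in that direction. The lists were chosen with earlier results of these data known, and their counts describe these samples. Of 6 further EGR, NR4A and NAB genes 5 fell in tumours against wild-type and none rose (median log2 difference -2.45). Egr3 fell by 3.99 and Egr4 fell by 3.68. The other members of this short list, named after their values were seen, were Nr4a2 and Nr4a3 (both -2.45), relatives of Nr4a1, and the EGR corepressors Nab2 (-0.79) and Nab1 (-0.38), of which Nab1 did not pass. Of 15 delayed activity genes of neurons 10 fell and none rose (median -1.31). Cartpt, a neuropeptide precursor, fell by 4.12 and Pcsk1, a prohormone convertase, fell by 2.80.

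Of 11 other AP-1 and ATF genes 1 rose and 2 fell (median 0.20). Mafk rose by 1.08, Fosl2 fell by 2.33 and Jdp2, a repressor of AP-1, fell by 0.63. Of 22 other primary response genes 8 rose and 5 fell (median 0.37). Ier3 rose by 3.22 and Ctgf, a secreted matrix protein, by 2.57, while Per1, a clock repressor, fell by 1.72 and Btg2, an antiproliferative factor, fell by 1.62. Of 18 upstream regulators 3 rose and 8 fell (median -0.38). Camk4, a calcium-dependent kinase that acts on CREB, fell by 4.35 and Mkl2, a coactivator of serum response factor, fell by 2.92, whereas Elk3 rose by 1.07 and Elk4 by 0.91. Srf (-0.04) and Creb1 (-0.43), the factors that bind the CArG box and the cyclic AMP response element, did not pass. They too were named after their values were seen.

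Against CKO cells of 90 dpi the counts were of the same kind. Of the 6 EGR, NR4A and NAB genes 5 fell and none rose, and of the 15 delayed genes 12 fell and none rose. Of the 11 AP-1 and ATF genes 2 rose and 4 fell, with Batf at 3.57, Mafk at 1.29, Fosl2 at -3.36 and Atf3 at -2.87. Of the 22 primary response genes 8 rose and 8 fell, and of the 18 upstream regulators 4 rose and 9 fell. In the comparisons before tumours none of these lists held a called gene.

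**Figure D3:**
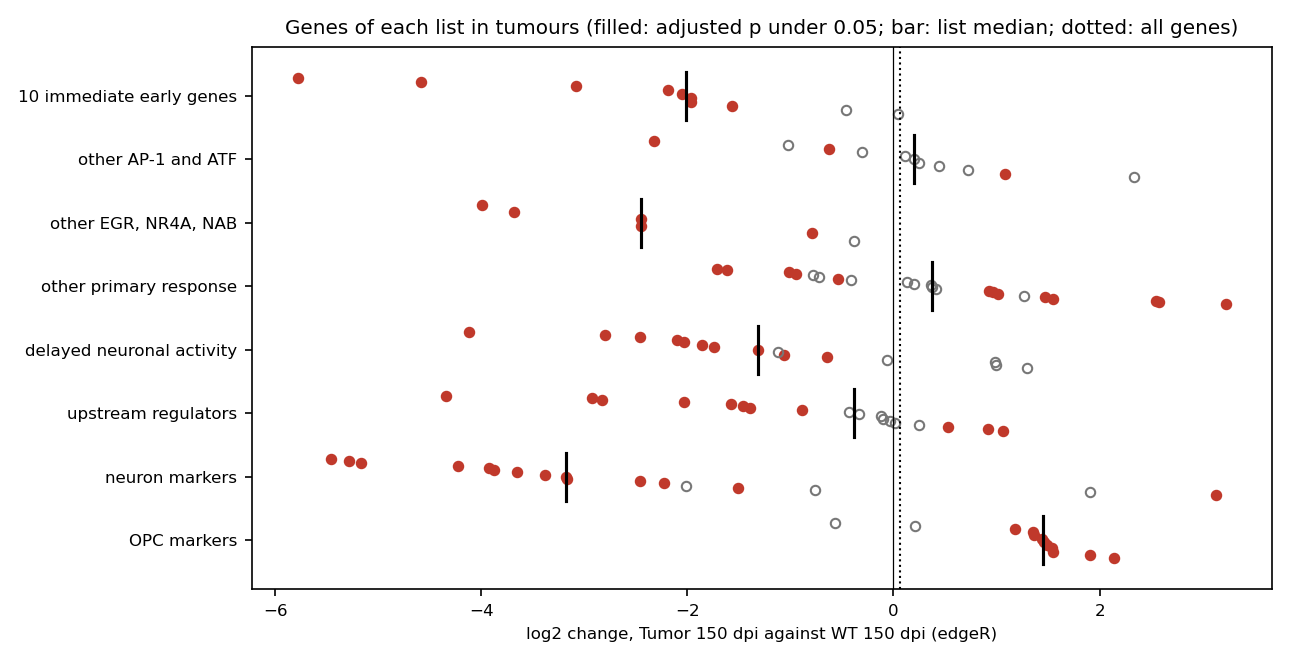
Log2 difference of each gene of the immediate early set and of the other lists between tumours and wild-type cells of 150 dpi, 1 point a gene (filled where the adjusted p was under 0.05), with the list median as a bar and the median of all genes as a dotted line. The 10 immediate early genes, the EGR and NR4A genes and the delayed genes have medians of -2.01, -2.45 and -1.31, and the primary response and AP-1 lists lie on both sides of 0.

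The level of these genes varied from animal to animal more than that of most genes, taken over genes of all levels. Their biological coefficient of variation in the bulk fit, tumours included, lay between percentile 62.8 (Egr1) and percentile 90.3 (Fosb) of all genes tested. Beside the fitted trend for genes of its own level, Ier2 was just below (0.479 against 0.489). The other genes were above their trends. In the 11 animals with 2 libraries, 7 of them tumours, the SD between libraries of 1 animal on the log2 scale was 0.28 for Egr2, the lowest, and 0.85 for Ier2, the highest. The SD between animals of a group, over all 37, ran from 0.65 (Egr1) to 1.3 (Fosb), larger than between libraries for each gene. Without WT_21167 it was 0.65 to 1.31 for the same 2 genes and again larger for each gene. That of Junb was then 0.81 in place of 1.20. Ier2 came closest to its SD between libraries there (0.91 against 0.85). Over the 30 animals without tumour the SD of Fosb was 0.89.

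The deviations of the genes from their group means went together across animals. Across the 30 animals without tumour, with group means removed, 45 of 45 gene pairs correlated positively, with Pearson's r from 0.33 to 0.89 (median 0.69). By permutation tests within groups (100000 resamples, Benjamini-Hochberg adjustment over the 45 pairs), 42 passed for Pearson's r and 43 for Spearman's rho. Arc and Npas4 were the closest pair (r 0.89, rho 0.89, r 0.88 without the 2 animals farthest from the median of Arc, adjusted p 2.6e-05, whose raw p of 1e-05 is the smallest the permutations can give). Junb and Ier2 gave r 0.87, and 0.71 without the 2 farthest. Egr2 with Ier2 (0.33), Egr2 with Npas4 (0.36) and Npas4 with Nr4a1 (0.37) did not pass for Pearson's r. Without WT_21167, 41 pairs passed. Within single groups the median r was 0.56 in CKO animals of 12 dpi, 0.80 in CKO animals of 90 dpi and 0.70 in wild-type animals of 150 dpi. Groups of 5 animals were too small for a value.

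Put by animal, 8 of the 30 had all 10 genes above their group's mean and 6 had none above. WT_22064 at 150 dpi had all 10 above. WT_22056 (12 dpi), WT_21593 (150 dpi) and WT_21167 (90 dpi, the shallowest library) and CKO_22208 (12 dpi), CKO_20642 and CKO_22154 (90 dpi) had none above. The other 16 animals had genes on both sides of their group's mean. In the 7 tumours 44 of 45 pairs were positive (median r 0.62), and none passed an exact permutation test over 5040 orders after adjustment over 45 pairs. Junb with Egr1, at r 0.86, fell to 0.01 without the 2 farthest tumours and so rests on them.

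**Figure D4:**
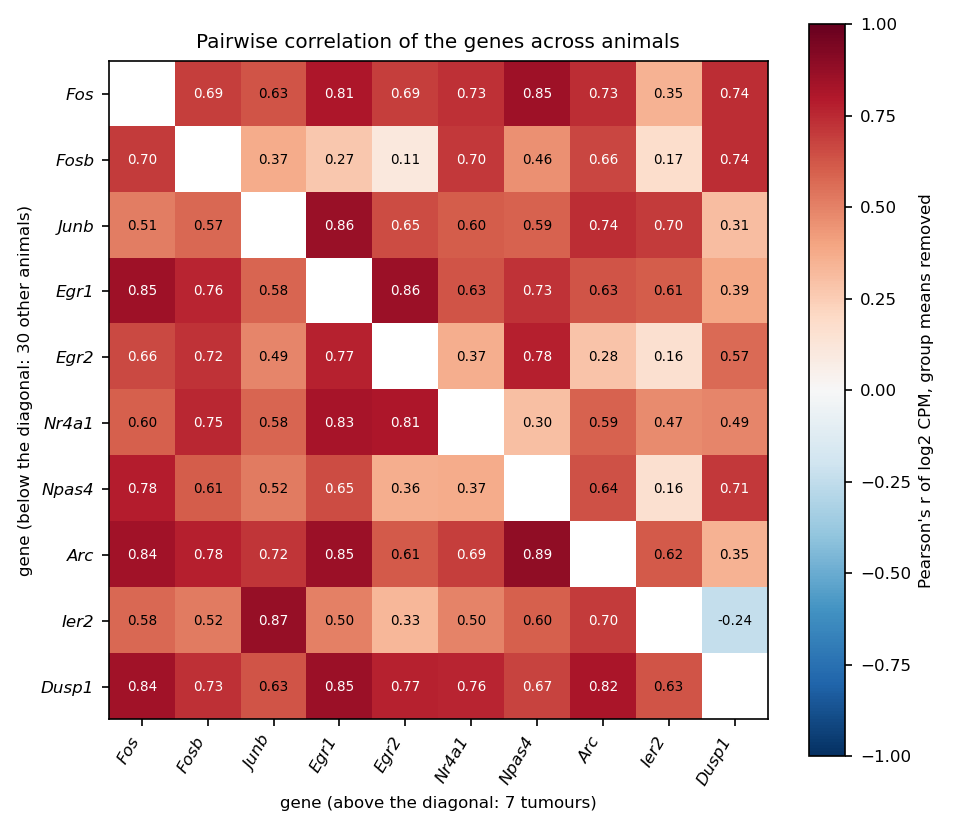
Pearson's r for each pair of genes across animals after removal of group means, with the 30 animals without tumour below the diagonal and the 7 tumours above it. All 45 values below the diagonal are above 0, and above it Ier2 with Dusp1 is the one value below 0.

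The same deviations were set against marker sums and depth, as 10 relations per measure with permutation tests adjusted over the 10. With summed neuron markers r was 0.13 to 0.43, and 0 of 10 passed. With oligodendrocyte precursor markers r was -0.71 to -0.15, and 2 passed for Pearson's r and 7 for Spearman's rho. Npas4 gave r -0.71 (permutation p 6e-05, adjusted p 0.0006, rho -0.68), and -0.63 without the 2 farthest animals. Arc gave r -0.56 (adjusted permutation p 0.0125, rho -0.58), and -0.45 without them. With endothelial markers r was 0.39 to 0.60, and 10 passed for Pearson's r and 6 for Spearman's rho. Without the 2 farthest animals these r were 0.22 for Ier2, the lowest, to 0.51 for Fosb, the highest. With microglia markers and with total counts none passed. The part of any of these in the shared variation was not tested. The share of all genes that pass the same tests was not computed. Since the 10 genes vary together, their relations with 1 measure are not separate observations.

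By correlation with the mean of the 10 scaled genes over the 30 animals, the genes most alike among 8165 ranked (median of all 0.08) were Btg2 (0.85), Plk2 (0.82), Bhlhe40 (0.82), Selenok (0.74), Slc25a3 (0.74) and Slc16a1 (0.72). Over the 10-cell libraries of both times the ranking of 9081 genes (median 0.21) was led by genes that include Scn3a (0.56), Myt1l (0.53), Plcb1 (0.53), Wipf3 (0.52) and Derl2 (0.52). No gene named here was in both rankings' leading genes. The libraries of 1 set share their source, and these values are descriptions.

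In the 10-cell libraries the genes were patchy. Of these, 56 a time, Egr1 had at least 1 count in 92 (82.1%, exact Clopper-Pearson 95% interval 73.8 to 88.7%), Dusp1 in 82, Nr4a1 in 75 and Npas4 in 66. Fos was found in 58, Arc in 57, Ier2 in 50, Junb in 45, Fosb in 30 and Egr2 in 14. Intervals treat each library as an independent draw, found or not. Amplified reads are not independent molecules, which the intervals leave out. In the 80 pool-and-split libraries Egr1 was found in 66 (82.5%), Npas4 in 65 (81.3%, interval 71.0 to 89.1%), Dusp1 in 56, Nr4a1 in 46, Ier2 in 30, Fos in 29, Arc in 25, Junb in 19, Fosb in 16 and Egr2 in 4. All 10 genes were found together in 5 of the 10-cell libraries, and none of them in 2.

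Single libraries carried much of the signal. Arc reached 3979 CPM in 1 10-cell library of 12 dpi, 76.4% of the summed CPM of that gene over the 56 libraries of that time. Fos reached 1979 CPM in 1 of these libraries (70.9%). Npas4 reached 1302 CPM in 1 pool-and-split library of 90 dpi. Means over libraries rest on few libraries, and the leading gene per kilobase differed between times. In 10-cell libraries it was Arc at 12 dpi (30.4 CPM per kb) and Ier2 at 90 dpi (13.3). In pools it was Dusp1 at 12 dpi (14.4) and Npas4 at 90 dpi (22.6). By mean CPM without division by length, Arc (93.0) and, in pools of 90 dpi, Npas4 (85.8) led as well. Npas4 then led the 10-cell libraries of 90 dpi (36.6 against 20.3 for Ier2). Egr1 led the pools of 12 dpi (46.9 against 33.35 for Dusp1).

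The 56 libraries of a time come from 4 sets of 14 and are not independent, which the intervals leave out. Between 12 and 90 dpi, Dusp1 went from 31 of 56 10-cell libraries (55.4%, interval 41.5 to 68.7%) to 51 of 56 (91.1%, 80.4 to 97.0%), and Fos from 20 (35.7%) to 38 (67.9%). By set, Dusp1 was found in 8, 10, 10 and 3 of 14 libraries at 12 dpi. At 90 dpi it was found in 12, 13, 12 and 14. Fos was found in 6, 7, 5 and 2 at 12 dpi and in 10, 10, 7 and 11 at 90 dpi. The share of all genes whose sets separate in this count was not computed. In pools Dusp1 went from 65% to 75% and Fos from 37.5% to 35%. Egr1 was found in 46 of 56 at both times. The median number of the 10 genes per 10-cell library was 3.5 at 12 dpi and 6 at 90 dpi, while the median number of all genes detected was 7550 and 10110. In pools it was 4.5 and 5 of the 10, with 8690 and 8739 genes detected. The number of genes detected overall moved with the detection of these genes, and its part in the difference was not tested.

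**Figure D5:**
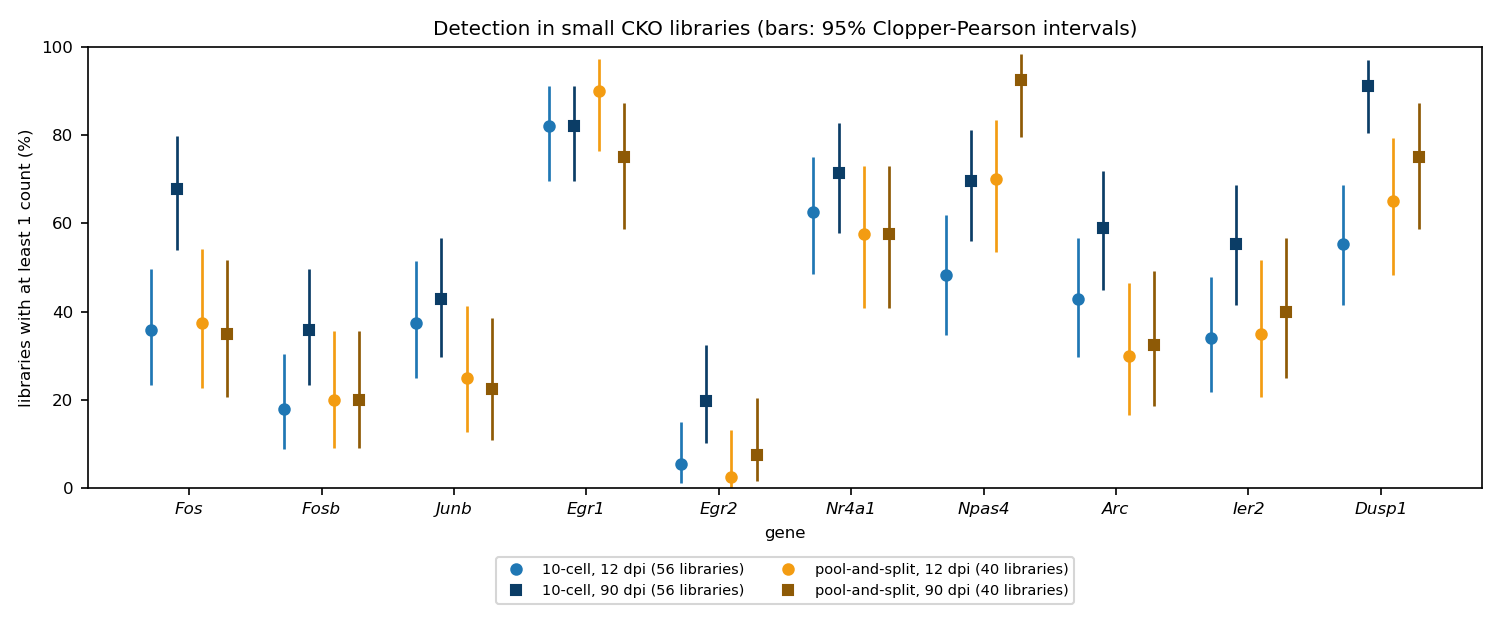
Share of small CKO libraries with at least 1 count of each gene, in percent, by library type and time, with exact 95% intervals. Dusp1 and Fos are higher at 90 dpi than at 12 dpi in 10-cell libraries (91.1% against 55.4% and 67.9% against 35.7%) but not Fos in pools (35% against 37.5%), and Egr2 is under 20% throughout.

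Counts were summed over each of the 8 numbered sets per library type, 4 a time, for a test across sets. In 10-cell sets 9 of the 10 genes passed the filter, all but Egr2, and 0 were called between 90 and 12 dpi, as for 0% of all genes, with 1 under an unadjusted p of 0.05 (7.13% of all genes). The summed level of Dusp1 differed by 0.32 on the log2 scale (unadjusted p 0.768). Npas4 had a log2 difference of 2.16 (unadjusted p 0.033, adjusted p 0.668 by edgeR) and Arc of -2.33. In pool-and-split sets 8 genes, all but Junb and Egr2, were tested and 0 called (0% of all genes), with Ier2 at 3.64 (unadjusted p 0.0475, adjusted p 0.636), the 1 gene of the 8 under 0.05 before adjustment (7.83% of all genes). DESeq2 called Ier2 in pool-and-split sets (3.60, adjusted p 0.04405) and none in 10-cell sets.

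The design of 10-cell against pool-and-split libraries asks whether a gene varies between small groups of cells more than the handling of RNA does. It was tested as the distance of each log2 value from its set's median, with limma, for genes found in at least 50% of libraries. Libraries of 1 set share their source, so its p-values measure spread between libraries. At 12 dpi 4 of the 10 could be tested and 0 were called (0.0254% of all genes). At 90 dpi 5 could be tested and 0 were called (0.621%). Nr4a1 at 90 dpi had a mean distance of 1.17 in 10-cell libraries and 0.69 in pools, a difference of 0.48 (unadjusted p 0.0479, adjusted p 0.362 by limma). Npas4 had 2.26 and 2.23 at that time. Fosb, Junb, Egr2, Arc and Ier2 were in too few libraries at either time for this test. Between genes, r across 10-cell libraries was -0.01 to 0.47 (median 0.17, highest for Egr1 with Npas4) and across pools -0.20 to 0.39 (median 0.05, highest for Arc with Nr4a1), as descriptions in sparse counts.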

How the data were processed

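RNA was measured in 48 bulk libraries of 37 animals and in 192 small libraries. The deposited table holds expected counts per gene, which the authors made with RSEM, with Bowtie2 and GRCm38, per the submitters' processing notes, which give no versions. Bulk RNA was amplified by a T7-based linear method and small libraries by PCR and Nextera XT tagmentation, per the labels' protocols, so levels were not tested across the 2 kinds. Amplification can change the relative levels of genes, and its effect was not measured here.

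The expected counts were rounded, the 92 spike-ins were left out, and the 2 libraries of each of 11 animals were summed, which makes the animal the replicate. No pair of libraries held identical values. Genes were kept by filterByExpr (count of 10, total of 15), scaled by TMM and fitted over all 6 bulk groups with sex as a covariate by edgeR 4.0.16's quasi-likelihood test (R 4.3.3), with Benjamini-Hochberg adjustment over all genes tested and a threshold of 0.05. Small libraries were summed by time, sex and set number. Nothing given here says which animal a set came from, so p-values over sets measure the spread between sets. The spread between libraries was tested with limma 3.58.1 on log2(CPM + 1). Correlations used log2 CPM with a prior count of 2 and Python 3.11.15. DESeq2 1.42.0, RLE scaling, other filters, the deepest library of each animal, no sex term, the compared groups alone and leaving out each animal or set were alternatives. Correlations with sex means removed, tumour comparisons without the 2 tumours of highest Fosb, and the SD between animals without the shallowest, were added after seeing the data.

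The genes, lists and tests were chosen with earlier results of these data known. All 10 genes were named, and of each list the 2 largest called rises and falls, with exceptions marked in the text. Some genes that this rule names are not reported here. The analysis scripts were tested on simulated data.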

Additional observations from a re-analysis of the deposited data

Results flagged for a closer look

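Within groups of 5 to 7 animals or 4 sets, 8 of 100 gene-by-group checks held 1 value far from the others, 2 of 60 over animals and 6 of 40 over sets, where chance gives about 1 in 20. Fosb was 19.1 CPM in CKO_20642, against 86.4 CPM or more in the other CKO animals of 90 dpi. Junb was at 0 CPM in WT_21167, whose library is the shallowest, against 13.6 CPM or more in its group. In pool-and-split sets of 12 dpi, Fosb was 0.405 CPM in the second male set against 4.16 in the nearest, Egr1 110.7 CPM in the first male set against 26.0, and Egr2 1.42 CPM in the first female set against 0 in the others. In the second female pool-and-split set of 90 dpi, Egr2 was 4.85 CPM against 0.106 in the nearest and Arc 4.23 CPM against 1.25. Egr1 was 53.1 CPM in the first male 10-cell set of 12 dpi against 37.9 in the nearest.

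The genotype effect differed between 90 and 150 dpi, by edgeR's test of the interaction, for Fos (-1.78), Junb (-2.24), Egr1 (-3.30), Egr2 (-2.16), Arc (-4.75) and Npas4 (-5.94). At 150 dpi the mutant group consists of tumours, so time and tumour cannot be told apart in these values.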

How the results depend on the processing

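Over the alternative settings, 455 of 456 counts of called genes stayed within 1.5 times the main count, as did all 47 added after seeing the data. These include the comparisons with a main count of 0, where few or no genes of any kind were called. For the change of the genotype effect, with a main count of 6, the counts of 5 to 8 seen without 1 animal lie inside this band. In pool-and-split sets DESeq2 called 1 gene, Ier2 (3.60, adjusted p 0.04405), against 0, and the cause was not tested. Leaving out 1 animal gave 8 to 8 called genes for tumours against wild-type, 7 to 8 against CKO cells and 5 to 8 for the change of the genotype effect. It gave 0 to 0 in the other bulk, set and spread comparisons. Of the correlated pairs 41 passed without the shallowest animal, the one animal left out there, and 41 to 42 under the other settings. The change of the genotype effect for Fos was not called in 18 of these 37 fits, nor with RLE scaling (adjusted p 0.0672), with a mean of at least 10 CPM (0.0559) or from the deepest libraries (0.0615). With the replicate block of set number, 0 genes were called in sets and in the spread tests, with Npas4 at 2.43 in 10-cell sets (adjusted p 0.885) and Ier2 at 3.67 in pool-and-split sets (adjusted p 0.859).

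Dusp1 and Ier2, which passed in no tumour comparison, changed sign. Against wild-type Dusp1 was -0.23 without the 2 tumours of highest Fosb, and -0.22 to 0.44 when 1 animal was left out. Against CKO cells Dusp1 was 0.086 by DESeq2, 0.083 with RLE scaling, 0.046 with a mean of at least 10 CPM, 0.19 from the deepest libraries and -0.38 to 0.25 with 1 animal left out. For the change of the genotype effect Dusp1 was 0.11 by DESeq2, 0.14 with RLE scaling, 0.11 with a mean of at least 10 CPM, 0.24 from the deepest libraries and -0.30 to 0.37 with 1 animal left out. Against CKO cells Ier2 was -0.019 with no sex term, -0.10 from the deepest libraries and -0.0057 to 0.17 with 1 animal left out, and for the change -0.16 to 0.78. The causes were not tested.

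RLE scaling moved the median of all genes from 0.06 to 0.22 against wild-type, from 0.12 to 0.29 against CKO cells and from 0.04 to 0.20 for the change. The share of calls that were lower went from 47.4% to 38.0%, from 46.2% to 36.5% and from 52.8% to 42.7%. DESeq2 gave 41.4% for the last of these. In the small libraries Egr2 did not pass the filter on low counts in either kind of set, nor Junb in pool-and-split sets.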
